A study of Mus musculus with 12 samples.

Results

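Lung gene expression in mice 20 months old was compared with that in mice 6 months old, using all 3 libraries of each age, 6 of the 12 libraries of an ageing series in C57BL/6NCr mice that also covers 12 and 30 months. Members were taken by the age in the library titles, and ages are written as 6M, 12M, 20M and 30M. The libraries are called 6M_201, 6M_202 and 6M_203, and 20M_213, 20M_221 and 20M_222, and values of an age are always given in that order. The labels give whole lung as the tissue, no treatment or mutant allele, and neither the sex of the mice nor whether each number is a separate animal, so that a p-value here compares libraries and may cover technical spread only.

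The lung is a mucosal organ, and its tissue holds blood-derived and resident immune cells beside the epithelium of the airways and alveoli, the capillaries and the fibroblasts. Plasma cells are the end stage of the B cell lineage, secrete antibody, and in mucosal tissue often make immunoglobulin A, which is exported across the epithelium after dimers have been joined by the J chain. The alveolar epithelium consists of flat type 1 cells, across which gas exchange takes place, and of type 2 cells, which make surfactant.

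Counts per library ran from 12229293 to 15058628 in these 6 libraries, and levels are given as CPM (counts per 1e+06 counts of a library, scaled by the TMM method). Genes that mark alveolar type 2 cells summed to 25634 to 44356 CPM in the 6 libraries, so markers of that lung cell type were present in all 6. The 3 libraries of 20M were less alike than those of 6M, with chi-square per gene of 30.6 to 48.8 between pairs against 6.66 to 11.6. Relative to the 6M mean, expression followed the GC content of the gene in 20M_221 and 20M_222 (Spearman rho across genes 0.358 and 0.465) but hardly in 20M_213 (-0.0045). Each rho is a description of a library, as genes are not replicates. In addition, 20M_222 held skeletal muscle transcripts, which are described near the end, so results are also given without it. The part that GC content plays in each difference was not tested beyond the alternative in which each library's trend on GC was removed.

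**Figure D1:**
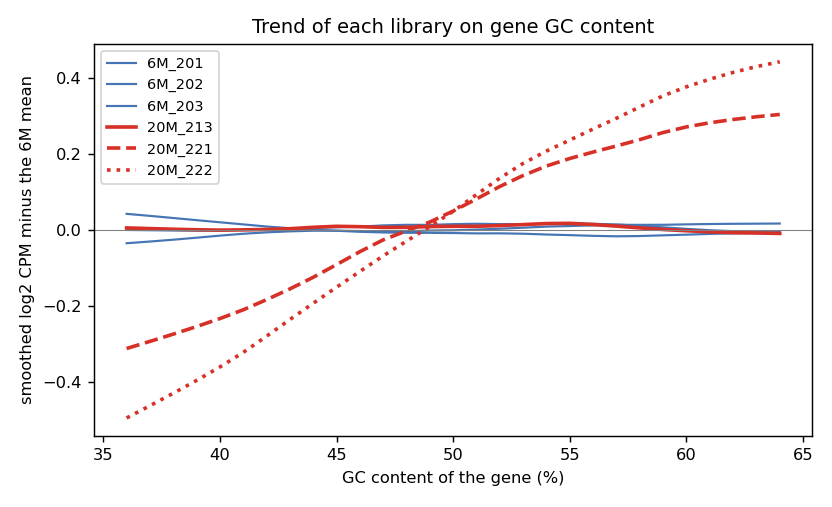
Smoothed difference of log2 CPM from the 6M mean (y axis) against the GC content of the gene in percent (x axis), 1 line per library of 6M (blue) and 20M (red). The lines of 20M_221 and 20M_222 climb from -0.31 and -0.49 at 36% GC to 0.30 and 0.44 at 64%, while that of 20M_213 stays flat with those of 6M.

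At 20M, 3 genes were higher than at 6M and none passed the test in the other direction. They were the predicted protein-coding gene C130026I21Rik and the antisense transcript Gm16028, which lie at the same place on chromosome 1, and Igha, the constant gene of the immunoglobulin A heavy chain. The test was the quasi-likelihood test of edgeR on 18407 genes, and a gene was called where the p adjusted by Benjamini and Hochberg was under 0.05. The 3 calls are 0.0163% of the genes tested. At an unadjusted p under 0.05, 908 genes were higher (4.93%) and 528 lower (2.87%). DESeq2 called 54 genes higher and 6 lower (0.293% and 0.0326%), limma voom with sample quality weights 351 higher and 425 lower (1.91% and 2.31%), and voom without weights 2, both higher. The 54 and 6 of DESeq2 and the 776 of voom with weights each include the 3 genes of edgeR. Immunoglobulin genes made up 27 of the 60 genes of DESeq2 and 15 of the 776 of voom. Among the 18407 genes tested were 109 variable segments and 12 constant genes of immunoglobulins. Many of these segments had enough counts only through the ages where they are high. In 1430 genes all 3 libraries of 20M lay above all 3 of 6M (7.77%), and in 1396 genes all lay below (7.58%). Across all tested genes the median log2 fold change was 0.03.

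C130026I21Rik (ENSMUSG00000052477, GRCm38, chromosome 1, 84992690 to 85270566, minus strand) was at 4.702, 2.39 and 2.18 CPM at 6M and 18.8, 18.6 and 14.4 CPM at 20M. The 2 ages did not overlap, and the lowest library of 20M, 20M_222, was about 3 times the highest of 6M. The means were 3.09 ± 1.40 and 17.2 ± 2.47 CPM (SD, n = 3), a 5.54-fold rise (log2 fold change 2.47, SE 0.27, adjusted p = 0.00747). At 12M the mean was 9.39 ± 1.54 CPM and at 30M 24.4 ± 1.13 CPM, and the difference between 30M and 20M was not called (adjusted p = 0.583).

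Gm16028 (ENSMUSG00000090252, chromosome 1, 85246851 to 85255465, plus strand) was at 0.522, 0.495 and 0.323 CPM at 6M and 3.62, 4.501 and 2.73 CPM at 20M. Its 20M libraries all lay above those of 6M, by 7.94-fold in the fit (log2 fold change 2.99, SE 0.41, adjusted p = 0.0318). The transcript lies within C130026I21Rik on the opposite strand. The strand setting of the counting was not given in the sources used here. Reads where the 2 genes overlap may therefore be shared between them, which was not measured. The sequence is also not unique: of the windows of 50 bases in the longest annotated transcript, 43% of those of C130026I21Rik and 36.1% of those of Gm16028 occur in a transcript of another gene, most often Sp140 and C130026I21Rik. Counts of both are therefore uncertain.

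Igha (ENSMUSG00000095079, chromosome 12, 113254830 to 113260236, minus strand) was at 12.2, 22.04 and 12.7 CPM at 6M and 115, 87.01 and 88.4 CPM at 20M. All 3 libraries of 20M were well above the highest of 6M, and 20M_221 and 20M_222 were close to each other. The means were 15.6 ± 5.55 and 96.7 ± 15.7 CPM (SD, n = 3), a 6.19-fold rise (log2 fold change 2.63, SE 0.33, adjusted p = 0.0263). No window of 50 bases of its transcript occurs in another gene's transcript. At 12M the mean was 39.5 ± 8.15 CPM, and at 30M it was 73.1 ± 34.6 CPM, not called against 20M (adjusted p = 0.775).

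The calls did not all hold when single libraries were left out. C130026I21Rik was called in 4 of the 6 fits that left out 1 library (adjusted p up to 0.0731), and among these it was the single gene called without 20M_222 (log2 fold change 2.58, adjusted p = 0.0106, 0.00533% of the genes tested). Igha was called in 1 of the 6, the fit without 6M_202, and Gm16028 in 0 of the 6 (both up to 0.308). The fit without 20M_222 had 504 genes higher and 181 lower at an unadjusted p under 0.05 (2.69% and 0.965% of its 18766 genes). In it Igha had a log2 fold change of 2.69 (adjusted p = 0.0536) and Gm16028 one of 3.15 (adjusted p = 0.0536). By the levels of the main fit, 2130 of 18407 genes lay above and 1915 below all of 6M in both 20M_213 and 20M_221 (11.6% and 10.4%). Without 6M_203 no gene was called by edgeR, with 738 at an unadjusted p under 0.05. With each library's GC trend removed, the same 3 genes were called.

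**Figure D2:**
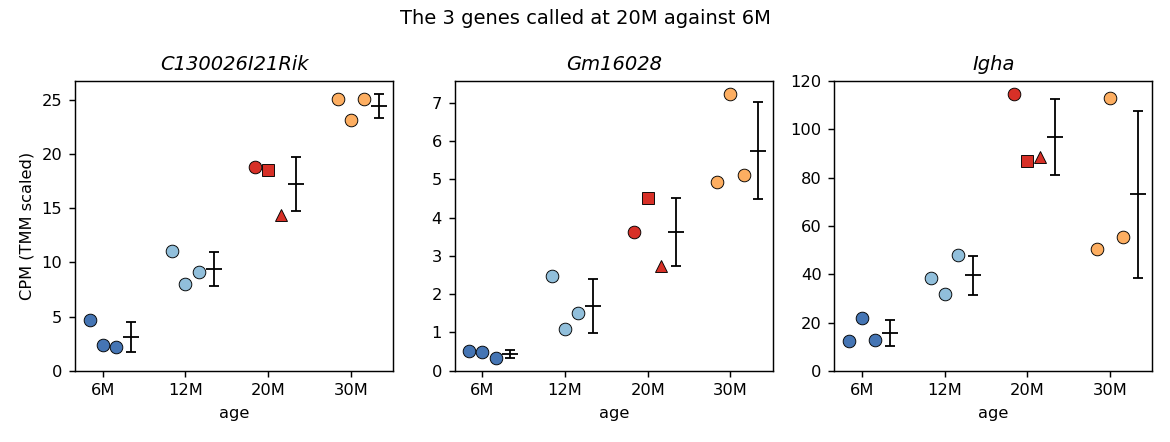
CPM (y axis, from 0) of the 3 called genes in each library at the 4 ages (x axis), with the mean and SD (n = 3) beside the points. At 20M the circle is 20M_213, the square 20M_221 and the triangle 20M_222, and every point of 20M lies above every point of 6M for all 3 genes.

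Since C130026I21Rik was the gene called most often, its promoter is shown, from 250 bases before to 50 bases after the start (RefSeq, GRCm38.p6, chr1:85270517-85270816, minus strand, printed 5′ to 3′ along the gene). Searched on both strands were the interferon-stimulated response element core GAAANNGAA, the gamma-activated sequence TTCNNNGAA, the octamer ATGCAAAT, the GC box GGGCGG and the TATA box TATAAA. The capitals mark the matches, which are 2 copies of the GC box.
C130026I21Rik: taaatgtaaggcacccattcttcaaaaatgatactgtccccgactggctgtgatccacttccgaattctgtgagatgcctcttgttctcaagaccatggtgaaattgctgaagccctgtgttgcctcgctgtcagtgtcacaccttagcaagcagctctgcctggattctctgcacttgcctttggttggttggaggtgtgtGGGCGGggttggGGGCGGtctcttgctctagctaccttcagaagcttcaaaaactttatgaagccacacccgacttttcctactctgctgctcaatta
The GC box is held by 35.7% of 32851 promoters of this length, the interferon-stimulated core by 8.56%, the gamma-activated sequence by 8.3%, the octamer by 1.74% and the TATA box by 13.6%. A match or its lack describes these letters only.

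The genes around C130026I21Rik were then described as a stretch, from the first gene after Fbxo36 to A630001G21Rik, chosen after the values were seen. Of its 37 listed genes 20 were tested, 2 were called and 19 had a log2 fold change above 0, with a median of 1.32 (1.46 without 20M_222). All 3 libraries of 20M lay above those of 6M in 11 of the 20, against 7.77% of all genes. The 11 include the 2 called genes. They also include Gm29284, A530032D15Rik, A530040E14Rik, Gm7609 and Gm16026, which, like Gm16028, overlap the span of C130026I21Rik. Reads may be shared between these genes, which was not measured, so the 11 are not separate observations. Some members, such as Gm2619 with 0.224, 0 and 0 CPM at 6M, were tested only through the ages where they are high. Counts over the stretch therefore describe and do not support the difference. In 1, the antisense Gm17017, all lay below, at 10.5, 8.502 and 8.16 CPM at 6M and 5.54, 5.75 and 4.58 CPM at 20M (log2 fold change -0.78, adjusted p = 0.646). The pseudogene Gm16026, at 85266698 to 85285491, was at 1.42, 0.743 and 1.05 CPM at 6M and 4.69, 3.44 and 2.14 CPM at 20M (adjusted p = 0.453). The protein-coding AC147806.2 was at 0.373, 0.495 and 0.243 CPM at 6M and 2.001, 2.25 and 1.403 CPM at 20M (adjusted p = 0.347). Smaller differences were seen in the named members of the Sp100 family of nuclear body proteins. Sp110 was at 43.1, 36.3 and 35.003 CPM at 6M and 56.7, 52.8 and 39.1 CPM at 20M (adjusted p = 0.638), with 20M_222 within the range of 6M. Sp100 was at 107, 84.9 and 78.3 CPM at 6M and 119.7, 108 and 86.8 CPM at 20M (adjusted p = 0.717), and Sp140 at 24.8, 25.01 and 18.7 CPM at 6M and 29.4, 25.4 and 19.8 CPM at 20M (adjusted p = 0.828), both overlapping between the ages. Of the windows of 50 bases, 50% in Gm16026, 53.8% in Sp110 and 63.1% in Sp140 occur in another gene's transcript, against 8.67% in Sp100, so these counts are uncertain.

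Antibody genes were higher at 20M beyond Igha, though single genes did not pass the test. In bulk tissue, more cells of a type and more RNA per cell cannot be told apart. Of 12 constant genes tested, 1 was called and 12 had a log2 fold change above 0 (median 2.85). In 6 of them all libraries of 20M lay above those of 6M, against 7.77% of all genes. The 6 include Igha, and also Ighe, at 0 CPM in each library of 6M and 0.462, 0.125 and 0.591 CPM at 20M. Ighe was tested through its levels at other ages and could come out only higher. DESeq2 called 5 of the 12 higher, against 0.293% of all genes. Igkc, the constant gene of the kappa light chain, was at 145, 118 and 104 CPM at 6M and 1499.8, 422 and 1481 CPM at 20M (log2 fold change 3.21, SE 0.70, adjusted p = 0.5301; DESeq2 adjusted p = 0.000787). Ighm, which encodes the heavy chain of IgM, was at 209.2, 216.1 and 134 CPM at 6M and 1600.5, 708 and 2401 CPM at 20M (log2 fold change 3.07, adjusted p = 0.5499; DESeq2 0.00428). In both genes the ages did not overlap, and 20M_221 was the lowest library of 20M. For Ighg2c, the IgG2c heavy chain, 4.48, 4.54 and 5.34 CPM at 6M and 359.8, 21.6 and 363 CPM at 20M were measured (log2 fold change 5.69, adjusted p = 0.5499). Its level in 20M_221 was 21.6 CPM, far under the 360 and 363 CPM of the other 2 libraries, but above all of 6M. Ighg2b was at 10.97, 2.31 and 7.92 CPM at 6M and 68.3, 20.8 and 138 CPM at 20M (log2 fold change 3.41, adjusted p = 0.638), again without overlap. The isotypes IgG1 and IgG3 overlapped between ages. Ighg1 was at 1.04, 0.413 and 3.799 CPM at 6M and 22.01, 2.69 and 45.7 CPM at 20M (adjusted p = 0.638), and Ighg3 at 13.8, 1.65 and 1.698 CPM at 6M and 8.003, 1.81 and 31.3 CPM at 20M (adjusted p = 0.7604). The lambda constant genes overlapped between ages. Iglc1 was at 18.1, 6.03 and 6.71 CPM at 6M and 27.7, 12.4 and 30.7 CPM at 20M (log2 fold change 1.19, adjusted p = 0.646), and Iglc2 and Iglc3 had log2 fold changes of 0.51 and 0.33 (adjusted p = 0.707 and 0.793).

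The composition by isotype was read as each heavy chain gene's share of the summed CPM of the heavy constant genes, without correction for gene length. That sum was 340.2, 292 and 215.5 CPM at 6M and 2251, 941 and 3104 CPM at 20M. Igha held 3.58%, 7.54% and 5.89% of it at 6M and 5.1%, 9.25% and 2.85% at 20M, so its share overlapped between the ages while its level did not. The IgG genes together held 8.91%, 3.05% and 8.7% at 6M and 20.4%, 4.99% and 18.6% at 20M. In 20M_221, the library with the smallest antibody sum, the IgG share was thus within the range of 6M. These shares have no test.

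Variable segments, which are joined to make the binding part of an antibody, summed to 74.3, 81.4 and 45.1 CPM at 6M over all listed segments, tested or not. At 20M they summed to 711, 249 and 1003 CPM, and the ages did not overlap. Of these segments 109 had enough counts to be tested, many of them only through the ages where they are high, so counts over the tested ones describe and do not support the difference. Of the 109, 0 were called by edgeR, 71 were higher and 0 lower at an unadjusted p under 0.05, and DESeq2 called 22. Among the 20M libraries 20M_222 was highest in 55 segments, 20M_213 in 47 and 20M_221 in 7. The segment with the most counts differed by library. Igkv3-2 led in 20M_221 and 20M_222 with 28.6 and 164 CPM, which are 12.3% and 17.1% of the sum over the tested segments. In 20M_213 the leading segment was Igkv5-43 with 82.3 CPM or 12.6%, a segment at 2.88 and 5.76 CPM in the other libraries of 20M. Igkv4-80 was at 0.448, 0.3302 and 0 CPM at 6M and 62.3, 0.688 and 57.2 CPM at 20M, high in 20M_213 and 20M_222 and near the 6M level in 20M_221. Igkv6-20, the segment with the smallest adjusted p, was instead high in all 3, at 0.224, 0.165 and 0.162 CPM at 6M and 15.3, 14.1 and 35.8 CPM at 20M (adjusted p = 0.06297). Ighv14-4 had 1 count in the 6M libraries together and 67, 127 and 210.0 counts in those of 20M (adjusted p = 0.234). These segments were chosen after their values were seen. Segments are near copies of one another, and 64.1% of the 50-base windows of Igkv6-20 and 22.4% of those of Igkv4-80 occur in other genes, so the split between segments is uncertain.

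The plasma cell list, 18 of 19 genes tested and partly made of the constant genes above, had 1 called member, Igha. Its median was 1.22, or 0.90 without 20M_222, and DESeq2 called 5 higher, against 0.293% of all genes. The 5 are Jchain and the constant genes Igha, Igkc, Ighg2b and Ighg2c, which were already counted above, so no other member was called. Jchain, the gene of the J chain that links antibody dimers and pentamers (chromosome 5, 88519809 to 88527891, minus strand), was at 16.9, 20.5 and 18.1 CPM at 6M and 391, 75.8 and 261 CPM at 20M (log2 fold change 3.71, SE 0.77, adjusted p = 0.495; DESeq2 adjusted p = 0.000787). Here too 20M_221 was the lowest of 20M and still above all of 6M. Derl3 and Mzb1, of the secretory machinery, were low in these bulk libraries. Derl3, of endoplasmic reticulum protein disposal, was at 1.64, 2.39 and 2.02 CPM at 6M and 3.92, 2.88 and 7.61 CPM at 20M (adjusted p = 0.638), and Mzb1, a chaperone of antibody assembly, at 0.597, 1.49 and 1.37 CPM at 6M and 0.308, 1.13 and 1.62 CPM at 20M (adjusted p = 0.935). Derl3 did not overlap between the ages and Mzb1 did, with its lowest value in 20M_213. Of the 50-base windows of Mzb1, 75.7% occur in another gene's transcript, so its count is uncertain. The receptor gene Fcrl5 was at 0.299, 0.413 and 0.485 CPM at 6M and 1.85, 1.13 and 0.886 CPM at 20M (adjusted p = 0.647).

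The promoter of Jchain (RefSeq, GRCm38.p6, chr5:88527848-88528147, minus strand, 5′ to 3′) is shown beside its values because the antibody genes were high together and no promoter of a constant gene was in the table used. The same motifs were searched and 0 matches were found, so it has no capitals.
Jchain: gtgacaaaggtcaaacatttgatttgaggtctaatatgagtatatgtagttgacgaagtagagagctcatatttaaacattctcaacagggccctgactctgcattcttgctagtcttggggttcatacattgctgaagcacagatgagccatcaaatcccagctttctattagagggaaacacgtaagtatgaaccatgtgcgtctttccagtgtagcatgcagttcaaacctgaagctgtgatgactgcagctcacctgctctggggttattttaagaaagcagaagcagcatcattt

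Among genes of mature B cells, Ms4a1 and Cd79a overlapped between the ages. All 16 B cell list members had a log2 fold change above 0 (10042 of 18407 among all genes), with 0 called, 1 at an unadjusted p under 0.05 and a median of 0.44. The median by library was 0.54, 0.92 and -0.25 at 20M and 0.59, -0.18 and -0.45 at 6M, and the list median was -0.07 in a fit with a term for 20M_221, 20M_222 and 30M_220, whose GC trend was steep. That list includes Ighm, its largest difference and the 1 that DESeq2 called. All 3 libraries of 20M lay above those of 6M in 2 of the 16, against 7.77% of all genes, and Ighm is 1 of the 2. Ms4a1, which encodes CD20, was at 50.5, 30.8 and 24.3 CPM at 6M and 53.3, 39.7 and 18.5 CPM at 20M (adjusted p = 0.973). Cd79a, of the B cell receptor, was at 52.2, 32.4 and 24.2 CPM at 6M and 55.02, 70.7 and 32.6 CPM at 20M (adjusted p = 0.757). In both genes 20M_222 was the lowest library of 20M, although it had the largest antibody sum, and the ages overlapped. Spib, a transcription factor of B cells and plasmacytoid dendritic cells, was at 17.7, 10.7 and 9.62 CPM at 6M and 31.2, 23.6 and 16.02 CPM at 20M (adjusted p = 0.646).

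**Figure D3:**
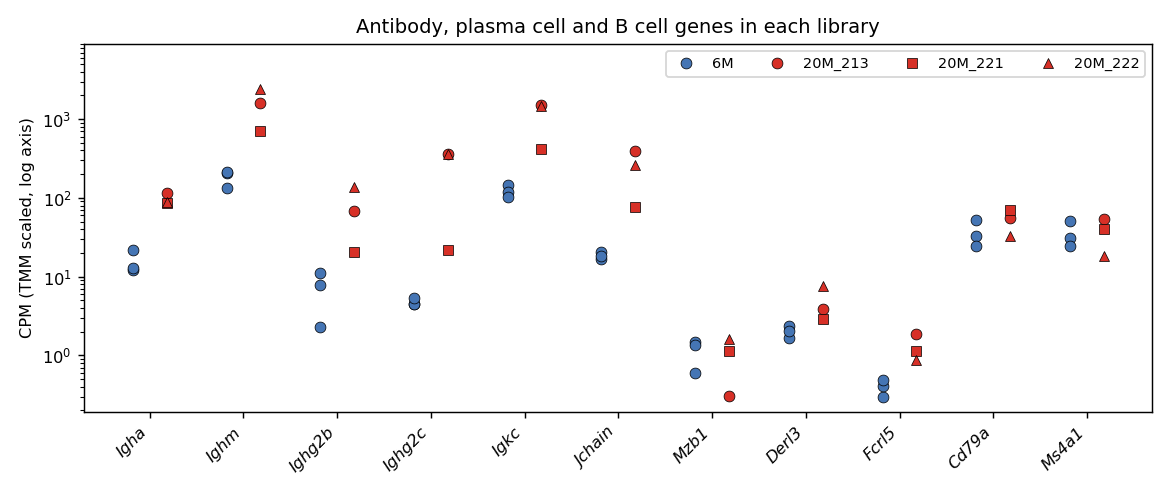
CPM on a log axis of antibody constant genes, plasma cell genes and B cell genes in the libraries of 6M (blue) and 20M (red, 1 symbol per library). Igha, Ighm, Ighg2b, Ighg2c, Igkc and Jchain lie apart between the ages, with 20M_221 the lowest of 20M in all of these, while Cd79a, Ms4a1 and Mzb1 overlap.

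Interstitial macrophage and monocyte genes mostly had log2 fold changes above 0, alveolar macrophage genes mostly below 0, and 0 genes were called in any macrophage or monocyte list. Of 16 interstitial macrophage genes, 15 had a log2 fold change above 0, with a median of 0.53 (0.37 without 20M_222). At an unadjusted p under 0.05, 5 were higher, against 4.93% of all genes. Relative to the 6M mean, the list median was 0.55, 0.29 and 0.75 in the 20M libraries. C1qc, a chain of the complement component C1q, was at 22.6, 22.7 and 15.8 CPM at 6M and 36.3, 27.1 and 41.8 CPM at 20M (log2 fold change 0.78, adjusted p = 0.638), without overlap. Apoe, the lipid carrier of macrophages, was at 464, 402 and 373 CPM at 6M and 633, 572 and 754 CPM at 20M (log2 fold change 0.66, adjusted p = 0.638). C1qa, another chain of C1q, also lay apart, at 31.3, 33.2 and 27.5 CPM at 6M and 44.8, 36.1 and 53.8 CPM at 20M. Of 15 monocyte genes 4 were higher at an unadjusted p under 0.05 (median 0.46, and 0.67, 0.54 and 0.12 by library, with 6M_201 at 0.42). Itgal, the alpha chain of the integrin LFA-1, was at 55.8, 48.8 and 29.6 CPM at 6M and 69.3, 86.8 and 69.4 CPM at 20M (adjusted p = 0.638). The lysosomal glycoprotein gene Cd68 was at 14.8, 17.3 and 9.86 CPM at 6M and 17.6, 23.5 and 20.7 CPM at 20M (adjusted p = 0.638). Iron-recycling macrophage genes had a median of 0.47, 9 of 12 above 0 and 0 at an unadjusted p under 0.05, with 0.50, -0.01 and 0.09 by library. Lipid-associated macrophage genes had one of 0.10 (0.01 without 20M_222), with 8 of 14 above 0 and 3 higher at an unadjusted p under 0.05. Alveolar macrophage genes had a median of -0.19, 3 of 15 above 0, and neutrophil genes one of -0.33. By library the neutrophil median was -0.71, 0.38 and -0.53 at 20M, within the range of -0.63, 1.23 and -1.01 at 6M.

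C1qc, not called at 20M against 6M, was called between 30M and 20M (log2 fold change 1.27, adjusted p = 0.0331), where 39 genes were called (0.212%). Its mean was 20.4 CPM at 6M, 34.2 at 12M, 35.1 at 20M and 84.4 at 30M. The comparisons with 6M and with 30M share the 20M libraries.

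Antigen presentation genes had small positive differences, with list medians lowest in 20M_222 among the 20M libraries. All 12 tested genes of MHC class II presentation had a log2 fold change above 0, with a median of 0.43 (0.28 with the GC trend removed). Of them 0 were called and 4 were higher at an unadjusted p under 0.05, against 4.93% of all genes. The list median by library was 0.50, 0.41 and 0.03 at 20M and 0.36, -0.10 and -0.25 at 6M, so 20M_222 lay within the range of 6M. H2-Ab1, a beta chain of class II, was at 339, 264 and 230.1 CPM at 6M and 401, 357 and 368 CPM at 20M, and H2-Eb1, the other, at 284, 197 and 177 CPM at 6M and 323, 309 and 287 CPM at 20M. Their fold changes were 0.43 and 0.48 on the log2 scale (adjusted p = 0.638 for both), and 6M_201 came nearest to the 20M libraries in each. Cd74, the invariant chain, was at 881, 734 and 668 CPM at 6M and 1037, 997 and 1068 CPM at 20M (log2 fold change 0.44), and the peptide loading gene H2-DMa at 53.8, 39.4 and 37.9 CPM at 6M and 59.6, 58.1 and 61.1 CPM at 20M. Of 19 genes of class I presentation, 16 were above 0 and 5 were higher at an unadjusted p under 0.05 (median 0.26, and 0.15 with the GC trend removed). By library that median was 0.37, 0.34 and 0.13 at 20M and 0.17, -0.03 and -0.12 at 6M, again with 20M_222 within 6M. Tap2, of the peptide transporter, was at 94.8, 87.8 and 80.2 CPM at 6M and 107, 134 and 135 CPM at 20M (log2 fold change 0.52, adjusted p = 0.584), and its log2 fold change was 0.35 with the GC trend removed. Its partner Tap1 was at 69.4, 45.5 and 43.01 CPM at 6M and 66.1, 79.5 and 72.95 CPM at 20M, where 6M_201 lay within the 20M range, and the immunoproteasome subunit Psmb8 at 66.2, 57.5 and 52.7 CPM at 6M and 86.6, 80.4 and 66.7 CPM at 20M. H2-Q4 overlapped between ages and has near copies.

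Interferon-stimulated genes differed between the 20M libraries. Of 36 genes 27 were above 0, with 0 called, 1 at an unadjusted p under 0.05 and a median of 0.17. Relative to the 6M mean, the median was 0.53, 0.21 and -0.24 in the 20M libraries and 0.18, -0.05 and -0.13 in those of 6M. Thus 20M_222 lay below all of 6M, 20M_213 above it and 20M_221 slightly above it. Without 20M_222 the median was 0.31. Oas2, an oligoadenylate synthetase, was at 9.55, 17.6 and 10.2 CPM at 6M and 27.8, 17.2 and 23.8 CPM at 20M (adjusted p = 0.638), with 6M_202 above 20M_221.

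The cytotoxic lymphocyte list had 20 tested genes, of which 12 had a log2 fold change above 0 and 8 below. Of these genes 0 were called and 6 were higher at an unadjusted p under 0.05 (4.93% of all genes), with a median of 0.29. Voom with weights called 2 higher and 2 lower. The members named below are all on the higher side. The list summed to 210, 87.3 and 82.6 CPM at 20M and 106 to 117 CPM at 6M. Its median by library was 0.80, -0.21 and -0.23, so it lay above 6M in 20M_213 alone. Tigit, an inhibitory receptor of T and natural killer cells, was at 0.373, 0.165 and 0.0808 CPM at 6M and 3.16, 0.688 and 1.18 CPM at 20M (adjusted p = 0.5499), and rested on 8 counts at 6M and 68 at 20M. Pdcd1, which encodes the inhibitory receptor PD-1, was at 0.448, 0.3302 and 0.0808 CPM at 6M and 3.23, 0.813 and 1.55 CPM at 20M (adjusted p = 0.638). Neither overlapped between the ages, and nor did the chemokine receptor genes Cxcr6 and Cxcr3. Cxcr6, of tissue-resident T cells, was at 6.94, 5.37 and 4.28 CPM at 6M and 18.5, 8.88 and 11.7 CPM at 20M (log2 fold change 1.23, SE 0.30, adjusted p = 0.5499; DESeq2 0.0479). Cxcr3 was at 2.99, 1.73 and 1.94 CPM at 6M and 4.69, 5.31 and 5.17 CPM at 20M (adjusted p = 0.638). In Tigit, Pdcd1 and Cxcr6 the highest library of 20M was 20M_213, whereas Cxcr3 was nearly even across the 3. Of 22 T cell genes 2 were higher at an unadjusted p under 0.05 (median 0.32). The adaptor Lat was at 11.6, 10.4 and 8.57 CPM at 6M and 19.6, 14.3 and 16.8 CPM at 20M (log2 fold change 0.73, adjusted p = 0.638), and Cd3e, of the T cell receptor complex, at 4.55, 2.97 and 3.31 CPM at 6M and 6.93, 4.25 and 7.01 CPM at 20M.

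Some genes of other leukocytes lay apart as well. Prg2, the major basic protein of eosinophil granules, was at 0.149, 0.0825 and 0.162 CPM at 6M and 4.62, 1.0002 and 3.91 CPM at 20M (log2 fold change 4.49, SE 0.84, adjusted p = 0.255; DESeq2 adjusted p = 0.0007502), on 5 counts at 6M and 129 at 20M. Ms4a2, of the IgE receptor of mast cells and basophils, was at 1.04, 0.413 and 0.485 CPM at 6M and 1.69, 1.75 and 2.14 CPM at 20M (adjusted p = 0.638). Their list of 12 genes had a median of 0.92, and of 0.55 without 20M_222. Of 14 dendritic cell genes, 5 lay apart on the higher side, against 7.77% of all genes, and 11 were above 0, against 10042 of 18407. The growth factor receptor gene Flt3 was at 3.66, 2.56 and 2.43 CPM at 6M and 5.54, 5.06 and 5.24 CPM at 20M (adjusted p = 0.638), and Xcr1, of cross-presenting dendritic cells, at 1.49, 1.57 and 2.102 CPM at 6M and 3.92, 2.69 and 4.21 CPM at 20M (adjusted p = 0.638). In the list of chemokines and their receptors, 6 of 32 were higher and 1 lower at an unadjusted p under 0.05 (4.93% and 2.87% of all genes). The lower one, Cxcl16, encodes the ligand of Cxcr6 and was at 93.3, 96.5 and 91.2 CPM at 6M and 77.95, 63.4 and 64.02 CPM at 20M (adjusted p = 0.638). Of its 50-base windows 19% occur in another gene's transcript, so its count is uncertain. Cxcl12 was at 119, 111 and 104 CPM at 6M and 142, 159 and 216.1 CPM at 20M (adjusted p = 0.638). Nfkbie, an inhibitor of NF-kB that is itself a target of it, was at 9.33, 7.099 and 7.11 CPM at 6M and 12.2, 13.6 and 13.1 CPM at 20M (adjusted p = 0.584).

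Alveolar epithelial genes had lower values at 20M, most of all in 20M_221 and 20M_222, and 0 of them were called by edgeR. Of 16 alveolar type 2 genes, 15 had a log2 fold change below 0, with a median of -0.40. At an unadjusted p under 0.05, 6 were lower, against 2.87% of all genes. DESeq2 called 1 of the 16 lower and voom with weights 8, against 0.0326% and 2.31% of all genes. The median by library was -0.14, -0.56 and -0.51, and the summed level was 39592, 25634 and 27929.8 CPM at 20M against 38113 to 44356 CPM at 6M. With the GC trend removed the median was -0.41, and with 20M_213 as the only library of 20M it was -0.14. Lyz1, an antimicrobial lysozyme, was at 435, 671 and 668 CPM at 6M and 350.1, 277 and 267 CPM at 20M (log2 fold change -0.99, SE 0.25, adjusted p = 0.574; DESeq2 adjusted p = 0.0405). Of its 50-base windows 16.1% occur in Lyz2, so its count is uncertain. Lamp3, a membrane protein of surfactant-storing lamellar bodies, was at 676, 806 and 822 CPM at 6M and 623, 362 and 367 CPM at 20M (log2 fold change -0.77, adjusted p = 0.638). Sftpd, the surfactant protein D gene, was at 729, 1019 and 905 CPM at 6M and 726, 535 and 553 CPM at 20M (log2 fold change -0.55), and Lpcat1, of surfactant lipid synthesis, at 582, 564 and 586 CPM at 6M and 490.0, 416 and 399 CPM at 20M (log2 fold change -0.41). In these 4 genes all of 20M lay below all of 6M, and 20M_213 was the nearest to 6M.

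Alveolar type 1 genes were alike in pattern. All 12 had a log2 fold change below 0 (median -0.39), and 7 lay apart on the lower side against 7.58% of all genes. At an unadjusted p under 0.05, 7 were lower, against 2.87% of all genes. By edgeR or DESeq2 0 were called, and voom with weights called 5 lower, against 2.31% of all genes. The median by library was -0.16, -0.55 and -0.50, and -0.44 over the 3 with the GC trend removed. With 20M_213 as the only library of 20M it was -0.16. The junction gene Cldn18 was at 905, 869.7 and 968 CPM at 6M and 784, 528 and 517 CPM at 20M (log2 fold change -0.58, adjusted p = 0.638). The chloride channel gene Clic5 was at 1119, 1074 and 1295 CPM at 6M and 965, 765 and 811 CPM at 20M, and the water channel Aqp5 at 368, 447 and 385 CPM at 6M and 336, 299 and 281 CPM at 20M (adjusted p = 0.638 for each).

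In the airway secretory list 2 of 13 genes were lower at an unadjusted p under 0.05, against 2.87% of all genes (median -0.19). Scgb3a1, a secretoglobin of airway secretory cells (chromosome 11, 49663610 to 49665118), was at 264, 346 and 392 CPM at 6M and 224, 86.3 and 137 CPM at 20M (log2 fold change -1.16, SE 0.28, adjusted p = 0.5499; DESeq2 adjusted p = 0.0153). The ages did not overlap, and 20M_221 was the lowest. The motile cilium list went slightly the other way, with 15 of 18 genes above 0 and a median of 0.21. Mesothelial genes had a median of -0.63, with -0.10, -1.32 and -0.58 by library, and their member Krt19 was at 280.3, 260.1 and 244 CPM at 6M and 232, 184 and 196 CPM at 20M.

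**Figure D4:**
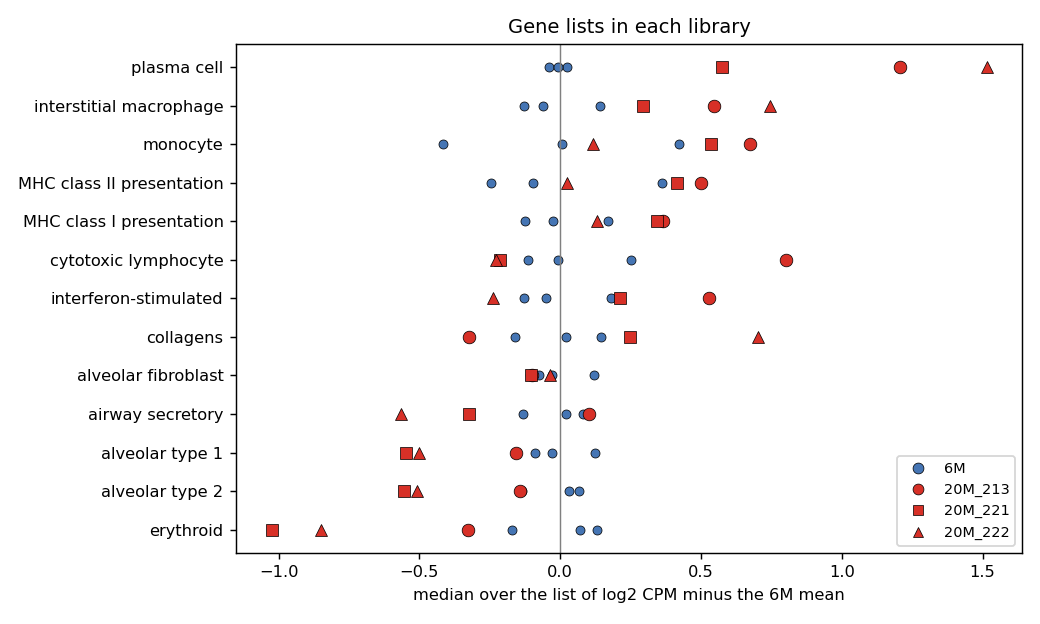
Median over each gene list of log2 CPM minus the 6M mean (x axis) for 13 lists (y axis), 1 point per library of 6M (blue) and 20M (red). The plasma cell, interstitial macrophage and 2 alveolar epithelial lists have all 3 points of 20M on 1 side of 6M, though 20M_213 lies level with 6M_201 in alveolar type 2, while the cytotoxic, interferon and collagen lists have 20M_213 and 20M_222 on opposite sides.

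Globin genes were lower at 20M without a call. Of 11 erythroid genes tested, 5 lay apart on the lower side (7.58% of all genes), 4 were lower at an unadjusted p under 0.05 (2.87% of all genes) and the median was -0.85. Hbb-bs, an adult beta globin, was at 709.6, 319 and 592 CPM at 6M and 317, 150.3 and 126 CPM at 20M (log2 fold change -1.45, adjusted p = 0.638). At the other ages Hbb-bs varied widely, at 352, 789 and 1404 CPM at 12M, and was at 815, 796 and 599 CPM at 30M. Its neighbour Hbb-bt was at 73.4, 34.8 and 81.9 CPM at 6M and 32.7, 17.3 and 15.3 CPM at 20M, and the alpha globin Hba-a1 at 278, 127 and 229 CPM at 6M and 104, 98.7 and 81.8 CPM at 20M. In all 3 the highest library of 20M was under 6M_202, the lowest of 6M. From 58.3% to 67.5% of the windows of these genes occur in another globin gene, so the split between copies is uncertain. The transferrin receptor gene Tfrc was at 109, 114 and 99.03 CPM at 6M and 97.8, 73.01 and 71.5 CPM at 20M (adjusted p = 0.638).

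Of 22 cholesterol synthesis genes, 9 lay apart on the lower side, against 7.58% of all genes, but the median was -0.09 and 0 were called. Idi1, which isomerises the isoprene unit, was at 42.2, 36.5 and 41.1 CPM at 6M and 26.8, 23.4 and 25.2 CPM at 20M (log2 fold change -0.67, adjusted p = 0.638). Cyp51, a sterol demethylase, was at 65.01, 75.7 and 62.7 CPM at 6M and 52.5, 46.8 and 44.5 CPM at 20M (log2 fold change -0.50). Both were even across the 20M libraries and clear of 6M. Of the 50-base windows of Idi1, 30.5% occur in another gene's transcript, so its count is uncertain.

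The skeletal muscle list separated 20M_222 from every other library. Its 20 genes summed to 4798 CPM there, to 231 and 121 CPM in 20M_213 and 20M_221, to 131 to 219 CPM at 6M, and to at most 317 CPM in any other library. Acta1, the actin of skeletal muscle, was at 1039 CPM in 20M_222 and at most 2.13 CPM elsewhere, and the myosin heavy chain Myh1 at 944 and at most 0.574 CPM. Myh4, another fast myosin, had 77.97 CPM in 20M_222 and 0 in the other 11 libraries. The creatine kinase Ckm was at 529 against at most 33.3 CPM, and the titin gene Ttn at 395 against 89.5. The thin filament genes Tnnt3, Tnni2 and Tnnc2 were at 383, 186 and 175 CPM against at most 3.81, 2.46 and 0.0845. The calcium pump Atp2a1 was at 319 against 4.66 CPM, the light chains Mylpf and Myl1 at 153 and 66.6 against 1.94 and 6.27, and nebulin, Neb, at 143 against 2.43. Lower levels of the same pattern were seen in Actn3, Casq1, Myoz1, Cacna1s, Pvalb and Myh2, at 50.7, 29.2, 29.2, 26.8, 7.90 and 4.95 CPM in 20M_222. The highest values of these elsewhere were 1.13, 1.44, 0.590, 6.53, 0.328 and 0.453 CPM. Mb, which the heart also makes, was at 204 against at most 134 CPM, and Myh7, the slow and cardiac myosin, at 34.8 CPM in 20M_222, under the 50.6 CPM of 6M_202.

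**Figure D5:**
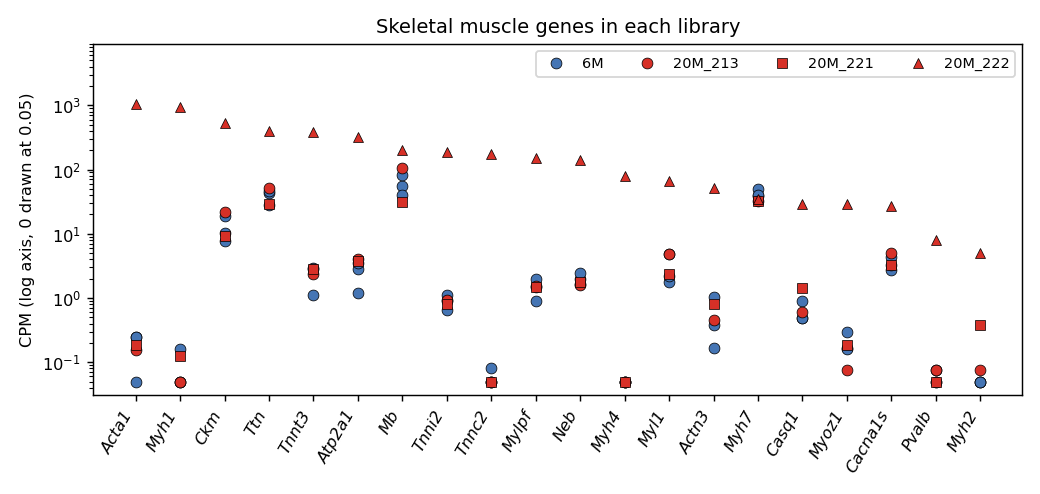
CPM on a log axis (0 drawn at 0.05) of the 20 skeletal muscle genes in the libraries of 6M (blue) and 20M (red). The triangles of 20M_222 stand above all other points in 19 genes and fall among them for Myh7.

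The 14 of these genes tested had a median log2 fold change of 4.31 with 20M_222 and 0.19 without it, and 0 were called by edgeR, with 11 at an unadjusted p under 0.05 (0 without 20M_222). Cardiac muscle genes, present in lung through the pulmonary veins, summed to 1020, 628 and 1092 CPM at 20M and 598 to 996 CPM at 6M, and adipocyte genes to 220.1, 102 and 320.2 CPM against 166 to 227 CPM. Other lists were also highest in 20M_222. Collagen genes had a median of 0.29, which was 0.00 without that library, and -0.32, 0.25 and 0.70 by library. Adventitial fibroblast genes had -0.13, -0.24 and 0.77 and the list of elastic fibre and basement membrane genes -0.24, 0.08 and 0.52. H19, an imprinted noncoding RNA, was at 0.522, 0.578 and 1.05 CPM at 6M and 0.7695, 0.125 and 146 CPM at 20M, so its log2 fold change of 6.08 was -0.72 without 20M_222. Whether the muscle transcripts bear on these lists was not tested. Smooth muscle genes differ from that pattern, as they were high in both 20M_221 and 20M_222. Their median by library was 0.01, 0.70 and 0.68, the smooth muscle actin Acta2 was at 84.6, 90.2 and 52.5 CPM at 6M and 87.8, 182 and 196 CPM at 20M, and the smooth muscle myosin Myh11 at 60.1, 60.999 and 44.1 CPM at 6M and 50.4, 176 and 193 CPM at 20M (adjusted p = 0.638 for both).

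Cell cycle inhibitors used as marks of senescence overlapped between the ages. Cdkn2a, which encodes p16 and p19Arf, was at 0.224, 0.825 and 0.404 CPM at 6M and 0.846, 0.625 and 0.886 CPM at 20M (log2 fold change 0.69, adjusted p = 0.7001). Cdkn1a, which encodes p21, was at 64.5, 134 and 184 CPM at 6M and 147, 127 and 291 CPM at 20M (log2 fold change 0.56, adjusted p = 0.752) and varied about 3-fold among the 6M libraries alone. Of 21 senescence and p53 genes 0 were called, and the median was 0.09.

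Among other lists, none with a gene called by edgeR, endothelial lists had medians of 0.01 (general capillary), -0.06 (aerocyte, the capillary cell of gas exchange) and 0.20 (pan-endothelial). Alveolar fibroblast genes had -0.08, platelet genes 0.29, complement genes 0.17 and cell cycle genes 0.21. Nuclear genes of oxidative phosphorylation had 0.01, mitochondrially encoded genes -0.09 and ribosomal protein genes -0.09. Endoplasmic reticulum stress genes had -0.22, with 18 of 23 below 0, and cytosolic heat shock genes -0.28, with 12 of 16 below 0. Circadian clock genes had 0.06, antioxidant genes -0.03, and WNT and TGF-beta pathway genes 0.10 and 0.07. Among imprinted growth genes (median -0.11) the transcription factor gene Peg3 was at 12.99, 15.7 and 16.98 CPM at 6M and 8.696, 10.3 and 8.71 CPM at 20M (log2 fold change -0.72, adjusted p = 0.638), lower in all 3 libraries of 20M.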

How the data were processed

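Poly-A selected RNA of whole lung was sequenced as paired-end reads on an Illumina platform, per the labels' protocols. The authors deposited whole-number read counts per gene, not normalized, made with FastQC 0.11.7, Trimmomatic 0.38, HISAT2 2.1.0 and featureCounts on GRCm38 (mm10), per the submitters' processing notes. The sources used here give neither the annotation release nor the strand setting. All 55487 rows name a gene.

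Counts were tested in R 4.3.3 with edgeR 4.0.16 (quasi-likelihood, robust, TMM, filterByExpr by age). The 12 libraries of the series entered a single fit and share its estimate of the spread. The contrast was 20M minus 6M, and 30M minus 20M for named genes. Log2 fold changes are those of the fit. Gene GC content and shared 50-base windows come from GENCODE M21 transcripts, and promoters from RefSeq. Alternatives were DESeq2 1.42.0, limma 3.58.1 voom, other scaling and filters, removal of GC trends, only the 2 ages, and each library left out. The main fit was also run on simulated counts. These held neither a GC trend nor an excess of muscle transcripts in a library, so such features were not covered.

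Members and lists were chosen with earlier results of these data known. Named are called genes that have at least 1 CPM and do not overlap between ages, up to 4 members of a list with the smallest p, and Cdkn2a and Cdkn1a. Other named genes were chosen after their values were seen, and some genes the rule names are not reported here. At this depth 1 CPM is 12.1 to 15.997 counts per library. No library duplicated another of its age. Lists were described by counts and medians, without a set test.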

Additional observations from a re-analysis of the deposited data

How the results depend on the processing

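The same 3 genes were called by edgeR with DESeq2 size factors, a minimum of 1 CPM in 3 libraries or the GC trend removed. With no count filter 3 genes were called, with Igkv8-30 in place of Igha. A term for 20M_221, 20M_222 and 30M_220, whose GC trend is steep, gave 4 calls, without Gm16028 and with Gm21149 and Gm43391. With only the 2 ages the 3 calls were Igkv6-20, Ighv14-4 and Igha, and without both 20M_221 and 20M_222 they were C130026I21Rik, Ighv9-4 and Igkv5-43, so each shared 1 gene. DESeq2 gave 60 calls (54 higher, 6 lower), and voom with quality weights 776 (351 higher, 425 lower). The cause of these differences was not tested. Leaving out 1 library gave 0 to 2 calls, with 0 lower in each, and leaving out 20M_222 with the GC trend removed gave 1, higher.

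Some uncalled genes changed sign. Over the fits that left out 1 library, log2 fold changes ran from -0.26 to 3.02 for Ighg3, -0.64 to 0.22 for Mzb1, -0.30 to 0.43 for Ms4a1, -0.72 to 6.66 for H19 and -0.0426 to 0.26 for Sp140. Without 20M_222 and with the GC trend removed, Ighg3 gave -0.29, H19 -0.79 and Acta1 -0.0106. Without both 20M_221 and 20M_222, Acta1 gave -0.0503 and Myh11 -0.12. With the term for steep GC trends, Ms4a1 gave -0.19, Cd79a -0.0448 and Myh11 -0.15. The cause was not tested.

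No paired analysis was possible because no 2 ages share a replicate number. Genes under about 1 CPM rest on few counts per library.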

Other observations

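Outside the lists, a few genes with small p were even across the 3 libraries of 20M; they were chosen after their values were seen and none was called by edgeR. Podnl1, of the small leucine-rich proteoglycan family of the matrix, was at 1.72, 1.73 and 1.62 CPM at 6M and 4.46, 6.25 and 6.65 CPM at 20M (log2 fold change 1.77, adjusted p = 0.239; DESeq2 0.000787). Il12rb1, a receptor subunit for the cytokines IL-12 and IL-23, was at 0.896, 0.6603 and 0.566 CPM at 6M and 2.92, 2.75 and 2.73 CPM at 20M (log2 fold change 1.97, adjusted p = 0.326; DESeq2 0.0125). Tomm7, of the protein import complex of the outer mitochondrial membrane, was at 24.8, 30.6 and 29.2 CPM at 6M and 41.02, 48.3 and 44.1 CPM at 20M (log2 fold change 0.66, adjusted p = 0.326; DESeq2 0.00812).

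On the lower side, the secreted factor gene Ndnf (chromosome 6, 65671590 to 65712326) was at 284, 318 and 330.3 CPM at 6M and 178, 152 and 169.5 CPM at 20M (log2 fold change -0.90, SE 0.20, adjusted p = 0.453; DESeq2 0.00951). Its log2 fold change was -0.91 without 20M_222, -0.80 with 20M_213 as the only library of 20M and -0.72 with the GC trend removed. Edil3, an integrin-binding secreted protein, was at 20.2, 23.9 and 17.9 CPM at 6M and 12.1, 10.6 and 10.5 CPM at 20M (log2 fold change -0.90, adjusted p = 0.574; DESeq2 0.0567).

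A second overlapping pair resembled that on chromosome 1. On chromosome 5, the protein-coding Gm21149 (15471703 to 15476523, minus strand) was at 2.39, 1.73 and 0.9701 CPM at 6M and 10.2, 5.56 and 5.24 CPM at 20M and the antisense Gm43391 (15464171 to 15478876, plus strand) at 0.448, 0.991 and 0.647 CPM at 6M and 5.16, 3.38 and 2.51 CPM at 20M. Their adjusted p were 0.325 and 0.234, and both were called when the fit held a term for 20M_221, 20M_222 and 30M_220, the libraries of steep GC trend. Of their 50-base windows 90.6% and 51.7% occur in another gene's transcript, so both counts are uncertain.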
